A study of Mus musculus with 16 samples.

Results

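The data described here are the liver transcript levels of 9 genes of glucose and glycogen metabolism, which were taken from a table of 24082 Ensembl genes by symbol, with 1 entry per gene. The genes are G6pc, Pck1 and Fbp1 of glucose production, Gckr and Pklr of glucose use, and Ppp1r3b, Ppp1r3c, Ppp1r3g and Gys2 of glycogen storage. RNA was sequenced from the livers of 16 adult female C57Bl6/J mice, 4 in each of 4 groups. Pair Vehicle mice received the control liquid diet in amounts matched to the ethanol-fed mice, and Pair IMC mice received that diet with Iodomethylcholine (IMC). EtOH Vehicle mice received the Lieber-DeCarli Chronic Ethanol Diet, and EtOH IMC mice received it with IMC. The study's authors found that diet consumption and weight dropped when IMC was added to the ethanol diet. They also marked a difference in body weight between pair-fed mice with and without IMC. Comparisons that involve EtOH IMC or Pair IMC can therefore also reflect intake or weight, and the part of these was not tested. IMC is a small molecule that blocks the gut bacterial enzyme which cleaves choline to trimethylamine. No engineered allele is named for any group. The comparisons ask how IMC, ethanol and their combination altered liver RNA.

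The liver releases glucose in fasting and stores it as glycogen after feeding. Glucagon acts through cyclic AMP to raise the genes of glucose production, insulin lowers them, and glucose itself raises genes of glycolysis through the transcription factor ChREBP, which is encoded by Mlxipl. Glycogen synthase is switched on by protein phosphatase 1, which regulatory subunits of the Ppp1r3 family bring to the glycogen particle.

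Between 9632659 and 12601199 reads were counted on genes per library. Values are normalized counts, in which reads are scaled by 1 factor per library, and are given below after all 16 libraries had been set to a common scale. Genes that reached 10 normalized counts in 4 or more libraries were kept, which left 12522 genes, the 9 among them. Differences in log2(value + 1) were tested by limma, and p-values were adjusted over the 12522 genes by Benjamini-Hochberg, with a threshold of 0.05. The 7 hepatocyte markers measured, such as Alb with at least 714939 normalized counts, were high in each library. Library 11, an EtOH IMC mouse, stood apart, since it held the skeletal muscle transcripts Acta1 at 676, Tnnt3 at 226, Ckm at 89.2 and Myh4 at 63.1 normalized counts, while Ckm and Myh4 were at 0 and Acta1 at most 2.21 in the other 15 libraries. The fifth muscle marker, Pygm, was at 34.5 in library 11 and between 5.93 and 18.1 in the others. Values of the 9 genes that involve EtOH IMC are therefore also given without library 11 where a call changed or the value moved by over 1.5 times, as are the counts of gene lists that changed. Libraries numbered 1 to 8 were Pair IMC and EtOH Vehicle, and those numbered 9 to 16 were Pair Vehicle and EtOH IMC, so any effect tied to the numbering cannot be told apart from the comparison of 2 groups or from the difference between diets. Contrasts averaged over diets or treatments are balanced in this respect. In whole liver, fewer hepatocytes and less RNA per hepatocyte cannot be told apart.

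**Figure D1:**
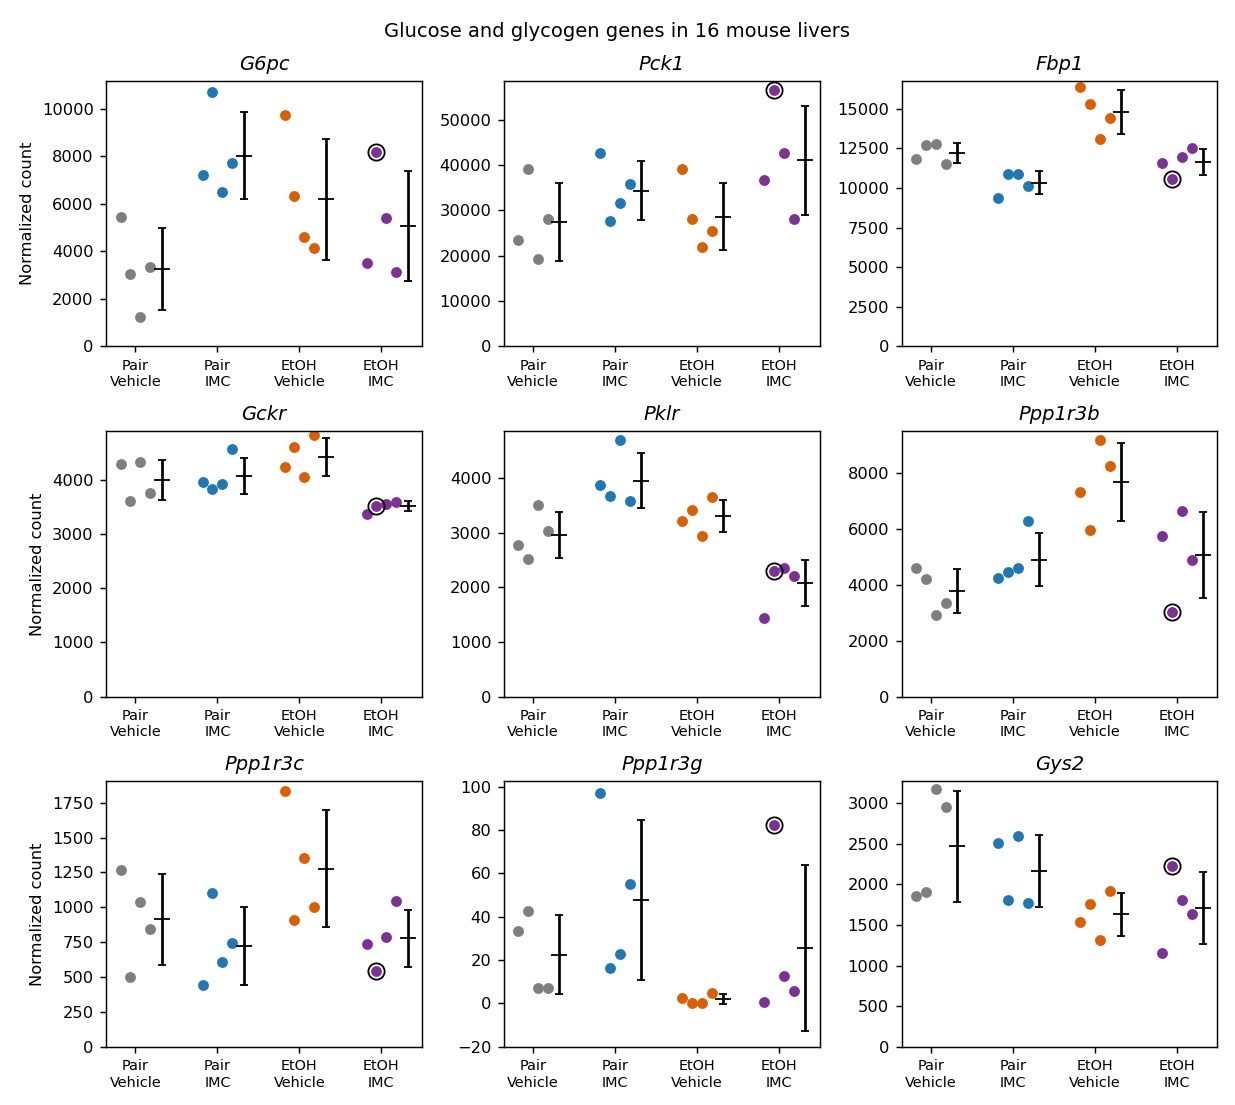
Normalized counts (y axis, linear, from 0 except where an SD bar extends below it) of the 9 genes in each of the 16 libraries, with the mean and SD of each group of 4 beside the points. Library 11 is circled. Each EtOH IMC library lay below every other library for Pklr, and each EtOH Vehicle library lay above every Pair Vehicle library for Ppp1r3b.

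Levels can be compared between genes only per length, as normalized counts per kilobase of exon. In Pair Vehicle mice Pck1 had 8025 ± 2506 per kilobase (SD, n = 4) and Fbp1 had 7166 ± 367, and these means differed by less than the spread of Pck1. G6pc followed at 1354 ± 719.7 per kilobase. Gys2 at 929.7 ± 259, Gckr at 921 ± 86.2 and Pklr at 913 ± 129.8 lay within each other's spread, above Ppp1r3b at 606 ± 126 and Ppp1r3c at 335 ± 119. Ppp1r3g, at 8.36 ± 6.79 per kilobase, was the lowest of the 9. Relative spread in Pair Vehicle ran from 5.12% of the mean for Fbp1 to 53.2% for G6pc and 81.3% for Ppp1r3g, so the precision with which a change could be measured differed widely between the genes.

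G6pc (ENSMUSG00000078650, chr11:101367561-101377903, + strand, GRCm38) encodes the catalytic subunit of glucose-6-phosphatase, which releases free glucose and is the last step of both glucose production and glycogen breakdown. Its promoter is shown because G6pc had the largest response to IMC in pair-fed mice among the 9 genes. The sequences given here run from 250 bases before to 50 after the first transcribed base in RefSeq (GRCm38.p6), counted as position 0, on the strand of the gene, and capitals mark motif matches on either strand.
G6pc, chr11:101367466-101367765, + strand: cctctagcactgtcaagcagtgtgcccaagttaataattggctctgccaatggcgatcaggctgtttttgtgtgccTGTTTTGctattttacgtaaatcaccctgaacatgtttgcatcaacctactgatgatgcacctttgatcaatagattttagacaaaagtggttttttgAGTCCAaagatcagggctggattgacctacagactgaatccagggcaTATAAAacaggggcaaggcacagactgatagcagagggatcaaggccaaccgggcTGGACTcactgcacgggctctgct
The match to the insulin response motif TGTTTTG, which 6.28% of 32851 mouse promoters hold, lay at -174 to -168, the TATA box TATAAA (13.6% of promoters) at -29 to -24, and AGTCCA, the core of HNF4 sites (14.1% of promoters), at -76 to -71 and on the other strand at 26 to 31.

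G6pc normalized counts in Pair Vehicle were 1222, 3042, 3347 and 5461 (mean 3268 ± 1737, SD, n = 4). In Pair IMC they were 6515, 7225, 7717 and 10702 (8039.7 ± 1842). The groups did not overlap, and the lowest value of Pair Vehicle, in library 14, stood well below the rest. G6pc rose with IMC in pair-fed mice by 1.46 on the log2 scale (SE 0.38, adjusted p = 0.0222, limma), a 2.75-fold difference. It was the only one of the 9 genes called in that comparison, where 9.49% of all genes tested were called (4.32% higher and 5.17% lower). The call was lost without library 14 (1.05, adjusted p = 0.0591) and without library 4 of Pair IMC (1.31, adjusted p = 0.0759). The means of the ethanol-fed groups lay between these means, and both ethanol-fed groups overlapped with each other and with both pair-fed groups. EtOH Vehicle values were 4126, 4604, 6324 and 9745 (6199.9 ± 2545), and EtOH IMC values were 3115, 3505, 5425 and 8200.4 (5061 ± 2323). IMC in ethanol-fed mice gave a log2 difference of -0.32 (95% interval -1.11 to 0.47, adjusted p = 0.582; -0.59, adjusted p = 0.308 without library 11). The IMC effects of the diets differed by -1.78 on the log2 scale (95% interval -2.90 to -0.66), which did not pass over all genes (adjusted p = 0.114; -2.04, adjusted p = 0.0624 without library 11). Ethanol without IMC gave 1.03 (95% interval 0.24 to 1.82, adjusted p = 0.0826; 1.34, adjusted p = 0.0304 without library 10).

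Pck1 (ENSMUSG00000027513, chr2:173153048-173159273, + strand) encodes phosphoenolpyruvate carboxykinase of the cytosol, which commits carbon from the citric acid cycle to glucose. Its promoter is given because it is the classic cyclic AMP target of the liver and its difference with IMC in pair-fed mice was smaller than that of G6pc.
Pck1, chr2:173152823-173153122, + strand: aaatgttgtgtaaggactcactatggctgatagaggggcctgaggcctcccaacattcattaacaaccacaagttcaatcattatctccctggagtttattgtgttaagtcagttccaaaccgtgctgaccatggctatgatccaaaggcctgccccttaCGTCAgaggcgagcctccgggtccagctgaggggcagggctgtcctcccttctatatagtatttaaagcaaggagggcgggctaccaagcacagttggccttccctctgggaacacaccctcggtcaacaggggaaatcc
Its match was to the cyclic AMP response half-site TGACG (20.8% of promoters), on the opposite strand at -90 to -86. The full palindrome TGACGTCA, present in 1.79% of promoters, and the FOXO motif TGTTTAC, present in 3.65%, had no match in the promoters of the members held in the RefSeq table.

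Pck1 values were 19238, 23505, 28119 and 39204 in Pair Vehicle (27516 ± 8594). They were 27541, 31555, 35752 and 42587 in Pair IMC (34359 ± 6429). In EtOH Vehicle they were 21979.6, 25378, 28114 and 39037 (28627 ± 7379.6). All groups overlapped, and EtOH IMC had the highest mean and the widest range. Its values were 28055, 36634, 42628 and 56595 (40978 ± 12007), the last of them in library 11. No comparison of Pck1 passed by limma on all libraries. The log2 difference with IMC was 0.35 in pair-fed mice (95% interval -0.15 to 0.85) and 0.50 in ethanol-fed mice (0.01 to 1.0, or 0.33 without library 11). Averaged over diets it was 0.43 (95% interval 0.08 to 0.78, adjusted p = 0.0642), which passed without library 1, 12 or 15, with an adjusted p of 0.0321, 0.0213 and 0.0289, and was 0.34 (adjusted p = 0.126) without library 11. That averaged difference also passed by DESeq2 (adjusted p = 0.0373), after quantile normalization (0.0425) and by edgeR without library 15 (0.0343), and IMC in ethanol-fed mice passed by DESeq2 without library 15 (0.0277). The ethanol differences were 0.07 without IMC (95% interval -0.42 to 0.57) and 0.23 under IMC (-0.27 to 0.72; 0.06 without library 11).

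Fbp1 (ENSMUSG00000069805, chr13:62864753-62888282, - strand) encodes fructose-1,6-bisphosphatase of the liver, the step that opposes phosphofructokinase. Its promoter is given because Fbp1 was the member called in both averaged contrasts.
Fbp1, chr13:62888233-62888532, - strand: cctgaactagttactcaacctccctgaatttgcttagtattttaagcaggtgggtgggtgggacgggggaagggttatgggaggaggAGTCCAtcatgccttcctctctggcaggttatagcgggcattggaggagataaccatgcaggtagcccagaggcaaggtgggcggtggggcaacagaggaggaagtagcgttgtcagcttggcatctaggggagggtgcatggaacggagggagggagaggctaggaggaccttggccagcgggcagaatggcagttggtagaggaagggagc
A single match, to AGTCCA, lay at -163 to -158.

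Fbp1 varied little between mice, so small differences could be measured. Values were 11517, 11815, 12689.6 and 12764 in Pair Vehicle (12196 ± 625) and 9374, 10121, 10855 and 10906 in Pair IMC (10314 ± 722). EtOH Vehicle values were 13075, 14428, 15278 and 16387 (14792 ± 1398) and EtOH IMC values were 10589, 11549, 11969.8 and 12507 (11654 ± 811). Each IMC library lay below each Vehicle library of its own diet, and each EtOH Vehicle library lay above each Pair Vehicle library. Fbp1 fell by 0.34 on the log2 scale with IMC in ethanol-fed mice (SE 0.09, adjusted p = 0.0154, limma), and the call was lost without library 1 (adjusted p = 0.0550) and after quantile normalization (0.0900). In pair-fed mice the difference was -0.24 (95% interval -0.44 to -0.05, adjusted p = 0.108), and it passed by DESeq2 (adjusted p = 0.033). Averaged over diets Fbp1 fell by 0.29 with IMC (SE 0.07, adjusted p = 0.00333), the only member called there, where 28.2% of all genes were called, 1759 of the 12522 as lower. The IMC effects of the diets differed by -0.10 (95% interval -0.38 to 0.18; -0.05 without library 11). Averaged over treatments Fbp1 rose with ethanol by 0.23 (SE 0.07, adjusted p = 0.0182; 0.0952 after quantile normalization). Within Vehicle mice the ethanol difference was 0.27 (95% interval 0.08 to 0.47, adjusted p = 0.0629; 0.33, adjusted p = 0.0488 without library 5), and under IMC it was 0.18 (-0.02 to 0.37). The difference within Vehicle mice passed by edgeR with upper quartiles (adjusted p = 0.0439) and by DESeq2 (0.011).

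Gckr (ENSMUSG00000059434, chr5:31297443-31327314, + strand) encodes the regulatory protein that holds glucokinase inactive in the nucleus of the fasted hepatocyte. Pklr (ENSMUSG00000041237, chr3:89136142-89146784, + strand) encodes pyruvate kinase of liver and red blood cells, the last step of glycolysis, and is a classic ChREBP target. The promoters of both are shown because they were lowest in EtOH IMC mice, and for Pklr the start used in liver, the downstream one of 2 RefSeq starts, is given.
Gckr, chr5:31297313-31297612, + strand: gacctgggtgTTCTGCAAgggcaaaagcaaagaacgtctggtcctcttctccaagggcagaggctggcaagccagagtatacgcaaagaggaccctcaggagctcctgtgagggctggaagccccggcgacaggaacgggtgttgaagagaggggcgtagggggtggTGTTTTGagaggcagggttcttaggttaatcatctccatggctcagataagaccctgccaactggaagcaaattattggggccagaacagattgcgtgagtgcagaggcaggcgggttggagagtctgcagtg
Pklr, chr3:89136373-89136672, + strand: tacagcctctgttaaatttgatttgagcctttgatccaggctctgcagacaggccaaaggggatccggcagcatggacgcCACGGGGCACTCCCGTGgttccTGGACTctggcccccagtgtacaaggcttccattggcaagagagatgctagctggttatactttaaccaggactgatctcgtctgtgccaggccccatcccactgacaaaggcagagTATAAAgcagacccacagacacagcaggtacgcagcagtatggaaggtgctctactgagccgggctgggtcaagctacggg
In Gckr the capitals mark TGTTTTG at -83 to -77 and the C/EBP motif TTGCNNAA (10.8% of promoters) on the other strand at -240 to -233. In Pklr they mark TATAAA at -31 to -26, AGTCCA on the other strand at -148 to -143 and, at -170 to -154, the carbohydrate response element, in which a pair of E-box-like repeats face each other 5 bases apart. That element was found in 15 of 32851 promoters (0.0457%), and in no other member held in the table. The plain E-box CACGTG, in 7.15% of promoters, was found among the members in Ppp1r3c alone, at -104 to -99.

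Gckr was close to level in 3 of the groups. Its values were 3599, 3745, 4294 and 4327 in Pair Vehicle (3991 ± 374) and 3823, 3919, 3960.1 and 4556 in Pair IMC (4064 ± 333). EtOH Vehicle values were 4041, 4226, 4594 and 4819 (4419.8 ± 351). EtOH IMC stood below all of these without overlap, at 3370.2, 3519, 3552 and 3584 (3506 ± 94.5). Gckr fell by 0.33 on the log2 scale with IMC in ethanol-fed mice (SE 0.09, adjusted p = 0.0107, limma), and this held when any library was left out but not after quantile normalization (adjusted p = 0.0643). In pair-fed mice the difference was 0.03 (95% interval -0.15 to 0.21). The difference between the diets, -0.36 (95% interval -0.61 to -0.11), did not pass over all genes (adjusted p = 0.158). Ethanol under IMC gave -0.21 (95% interval -0.39 to -0.03, adjusted p = 0.10).

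Pklr fell with IMC in ethanol-fed mice, and its IMC effect differed between the diets. Values were 2519.8, 2773, 3020.4 and 3505 in Pair Vehicle (2955 ± 420.0) and 3571, 3676, 3868 and 4691 in Pair IMC (3952 ± 508). EtOH Vehicle values were 2946, 3211, 3406 and 3641 (3301 ± 295). EtOH IMC values were 1442, 2205, 2305 and 2348 (2075 ± 426), with the lowest in library 9. All Pair IMC libraries lay above all Pair Vehicle libraries, and all EtOH IMC libraries lay below the other 12. Pklr fell by 0.69 on the log2 scale with IMC in ethanol-fed mice (SE 0.14, adjusted p = 0.00264, limma). In pair-fed mice the difference was 0.42 (95% interval 0.12 to 0.72, adjusted p = 0.0683), and it passed without library 14 (adjusted p = 0.0480) or library 9 (0.0209). It also passed after quantile normalization (adjusted p = 0.0418, limma) and by DESeq2 (0.040). The difference of the IMC effect between diets was -1.11 (SE 0.20, adjusted p = 0.0133), and Pklr was the only member called for it, where 1.11% of all genes were called (0.319% with a positive and 0.791% with a negative difference). With ethanol under IMC Pklr fell by 0.95 (SE 0.14, adjusted p = 0.000381), the only member called there on all libraries, where 16.5% of all genes were called (7.87% higher and 8.61% lower). Without IMC the ethanol difference was 0.17 (95% interval -0.13 to 0.47). Each of the 3 Pklr calls between single groups or diets held in every alternative run, with adjusted p-values of at most 0.0332, and without library 11 the values were -0.75, -1.17 and -1.01.

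Reads of Pklr may include those of a neighbour if strand was not used in the counting. Pklr shares 711 exon bases with Hcn3, a potassium and sodium channel gene on the opposite strand, and while the Directional library kit named in the labels keeps the strand, the strand setting of the counting is not given in the sources used here. Hcn3 had 213 ± 89.2 normalized counts in Pair Vehicle, 495 ± 219 in Pair IMC, 147 ± 9.67 in EtOH Vehicle and 109 ± 32 in EtOH IMC. Its level thus followed the order of Pklr in Pair IMC and EtOH IMC, as the highest and lowest groups. Hcn3 rose with IMC in pair-fed mice by 1.19 on the log2 scale (adjusted p = 0.0273) and fell by 2.11 with ethanol under IMC (adjusted p = 0.000442), while its difference with IMC in ethanol-fed mice was -0.48 (95% interval -1.16 to 0.19). How many reads the genes share was not tested.

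**Figure D2:**
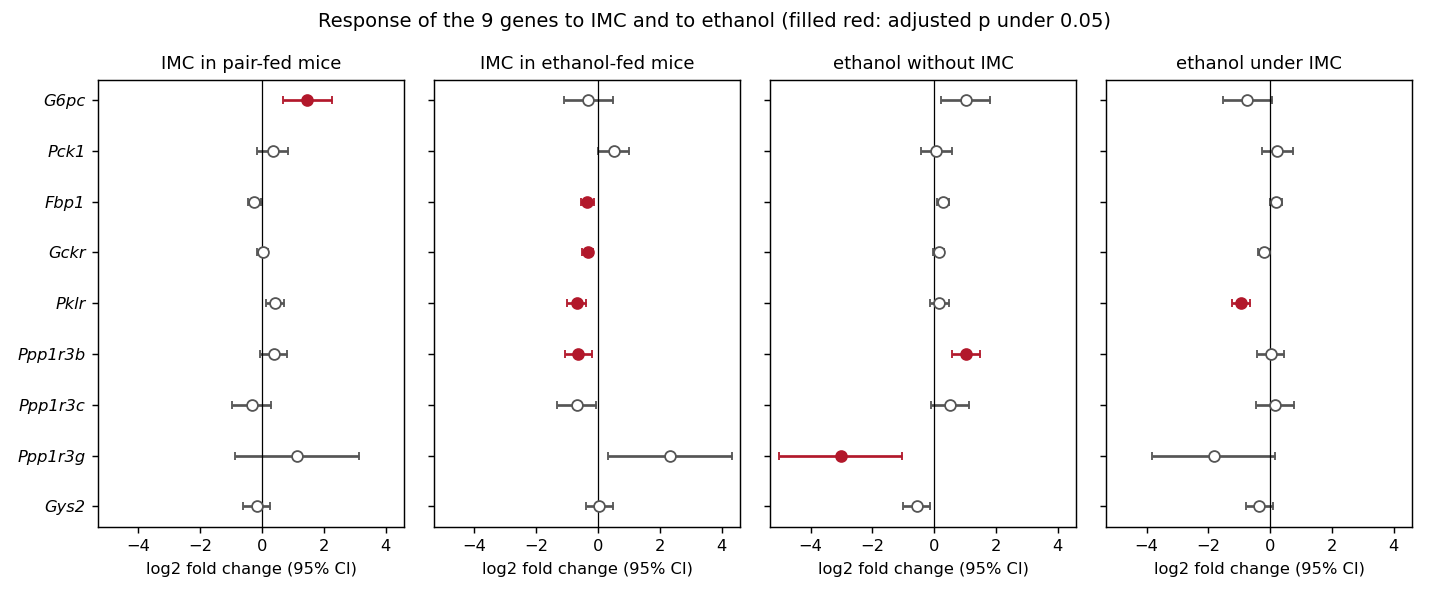
Log2 fold change (x axis) with its 95% interval for each of the 9 genes (y axis) in 4 comparisons of 2 groups, filled red where the adjusted p was under 0.05. IMC raised G6pc in pair-fed mice and lowered Fbp1, Gckr, Pklr and Ppp1r3b in ethanol-fed mice.

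In ethanol-fed mice, then, 4 of the 9 genes were lower with IMC, where 21.5% of all genes tested were called and 11.1% were lower, and 3 of the 9 without library 11. None was higher by limma, where 10.4% of all genes were higher, and 2 of the 9 were higher at an unadjusted p under 0.05 (Pck1 and Ppp1r3g). Ppp1r3g was higher by edgeR (adjusted p = 0.0437) and DESeq2 (0.0182), neither of which was run without library 11. That library held 98 reads of Ppp1r3g, against at most 13 in the rest of EtOH IMC, and without it the limma difference was 1.36 (adjusted p = 0.291). The median log2 difference of the 9 was -0.33, and that of all genes was -0.0015. In pair-fed mice the median of the 9 was 0.35. The fourth gene that fell in ethanol-fed mice was Ppp1r3b (ENSMUSG00000046794, chr8:35375739-35388139, + strand), which encodes the main glycogen-targeting subunit of protein phosphatase 1 in liver. Its values were 5931, 7291, 8244 and 9164 in EtOH Vehicle (7658 ± 1382) and 3034, 4887, 5721 and 6617 in EtOH IMC (5065 ± 1527). The groups overlapped, and the lowest value was that of library 11. Ppp1r3b fell by 0.64 on the log2 scale (SE 0.21, adjusted p = 0.0375, limma), and it was -0.41 (adjusted p = 0.124) without library 11. The call was lost in 9 of 27 alternative fits, among them quantile normalization (adjusted p = 0.137), no filter on low values (0.0542), and the fits without library 1 (adjusted p = 0.0637), 5 (0.110), 7 (0.0897) or 15 (0.0675).

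The rise of Ppp1r3b with ethanol was firmer. Pair Vehicle values were 2897, 3357, 4211 and 4608 (3768 ± 781), and all 4 EtOH Vehicle values lay above them. Ppp1r3b rose with ethanol in Vehicle mice by 1.03 on the log2 scale (SE 0.21, adjusted p = 0.00473, limma), a 2.04-fold difference that held in all 27 alternative fits, between 0.91 and 1.22. It was 1 of 2 members called in that comparison, where 11.9% of all genes were called (6.35% higher and 5.56% lower). Pair IMC values were 4228, 4434, 4607 and 6279 (4887 ± 941), and under IMC the ethanol difference was 0.01 (95% interval -0.43 to 0.45; 0.24 without library 11). The difference between diets in the IMC effect was -1.02 (95% interval -1.64 to -0.39), which did not pass over all genes by limma (adjusted p = 0.108) and passed by DESeq2 (adjusted p = 0.0399).

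Ppp1r3c (ENSMUSG00000067279, chr19:36731731-36736653, - strand), another glycogen-targeting subunit, passed in no comparison by limma on all libraries. Its values were 502, 848, 1036 and 1269 in Pair Vehicle (914 ± 324) and 444, 605, 743 and 1101 in Pair IMC (724 ± 279.9). They were 907, 1005, 1356 and 1835 in EtOH Vehicle (1276 ± 419.5) and 544, 739.5, 784 and 1042 in EtOH IMC (778 ± 205). All groups overlapped, and EtOH Vehicle had the highest mean. The differences with IMC were -0.34 in pair-fed mice (95% interval -0.96 to 0.29) and -0.70 in ethanol-fed mice (-1.32 to -0.08, adjusted p = 0.101; -0.54 without library 11; 0.0427 with the libraries of that comparison alone). Averaged over diets the IMC difference was -0.52 (95% interval -0.95 to -0.08, adjusted p = 0.0735), and it passed without library 12, 4 or 15, with an adjusted p of 0.0189, 0.0308 and 0.0495. Without library 15 it also passed by edgeR (adjusted p = 0.0408) and DESeq2 (0.0489).

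Ppp1r3g (ENSMUSG00000050423, chr13:35958839-35970388, + strand), a glycogen-targeting subunit described as rising in fasting, was near the limit of detection. In Pair Vehicle its values were 6.99, 7.08, 33.2 and 42.8, from 6, 7, 30 and 44 reads. In Pair IMC they were 16.5, 22.9, 55.1 and 97.0, from 17, 23, 44 and 96 reads. EtOH Vehicle libraries held 0, 0, 3 and 5 reads, and so lay at or close to the 3 reads that a count of 0 allows. EtOH IMC libraries ranged from 1 to 98 reads, with the 98 reads (82.5 normalized counts) in library 11 and at most 13 in the other 3. Pair IMC by itself supplied the 4 libraries needed to pass the filter, and 8 of 16 libraries reached 10. Ppp1r3g fell by 3.02 on the log2 scale with ethanol in Vehicle mice (SE 0.95, adjusted p = 0.0459, limma). That call was lost in 16 of 27 alternative fits, 10 of which left out 1 library (10, 12, 14, 6, 8, 1, 3, 5, 13 or 15) with adjusted p-values between 0.0515 and 0.128. Under IMC the ethanol difference was -1.83 (95% interval -3.83 to 0.17, adjusted p = 0.203), and -2.81 (adjusted p = 0.0306) without library 11. IMC in ethanol-fed mice gave 2.33 (95% interval 0.34 to 4.33, adjusted p = 0.0883), 1.36 (adjusted p = 0.291) without library 11 and 3.19 (adjusted p = 0.0206) without library 9. The gene Gm30127 lies over Ppp1r3g on the other strand, with 0 shared exon bases, as Gm45469 does over Ppp1r3b.

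Gys2 (ENSMUSG00000030244, chr6:142422613-142473109, - strand) encodes the liver form of glycogen synthase. Values were 1856, 1905, 2949.6 and 3171 in Pair Vehicle (2470.3 ± 687) and 1768, 1804, 2509.8 and 2599 in Pair IMC (2170.2 ± 445). EtOH Vehicle values were 1312, 1543, 1754 and 1915 (1631 ± 261), and EtOH IMC values were 1149.9, 1639.8, 1809 and 2229.8 (1707 ± 447). Ethanol-fed groups were lower on average but overlapped with the pair-fed groups. Gys2 fell by 0.47 on the log2 scale with ethanol averaged over treatments (SE 0.15, adjusted p = 0.0263, limma), which was lost without library 14, 16, 2, 6, 5 or 9, with adjusted p-values of 0.0508 to 0.0584. The difference was -0.57 without IMC (95% interval -1.01 to -0.13, adjusted p = 0.0807) and -0.36 under IMC (-0.80 to 0.07). By DESeq2 the difference without IMC passed (adjusted p = 0.0345). IMC gave -0.17 in pair-fed mice (95% interval -0.60 to 0.27) and 0.04 in ethanol-fed mice (-0.40 to 0.48; -0.10 without library 11).

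Averaged over treatments, ethanol altered 5 of the 9 genes, where 26.1% of all genes were called, 1622 as higher and 1651 as lower. Fbp1 and Ppp1r3b rose, the latter by 0.52 (SE 0.15, adjusted p = 0.0153), and Pklr (-0.39, SE 0.10, adjusted p = 0.00863), Ppp1r3g (-2.43, SE 0.67, adjusted p = 0.0132) and Gys2 fell. The average for Pklr and Ppp1r3b joins unlike effects, since the ethanol differences of Pklr were 0.17 without and -0.95 under IMC and those of Ppp1r3b were 1.03 and 0.01. Ethanol contrasts depend on the scale. The factors that set the deposited values to the common scale were 0.940 to 0.945 in pair-fed and 1.073 to 1.079 in ethanol-fed libraries. The deposited values thus carried a shift between the diets. With the values as deposited, the median log2 difference of all genes was 0.18 without IMC and 0.19 under IMC, compared with -0.0072 and 0.0034 on the common scale. On the deposited scale G6pc (1.22, adjusted p = 0.0257), Fbp1 (0.46, adjusted p = 0.00185) and Gckr (0.34, adjusted p = 0.00834) also passed for ethanol without IMC, and Pklr (-0.20, adjusted p = 0.119) and Gys2 (-0.28, adjusted p = 0.141) no longer passed averaged over treatments.

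**Figure D3:**
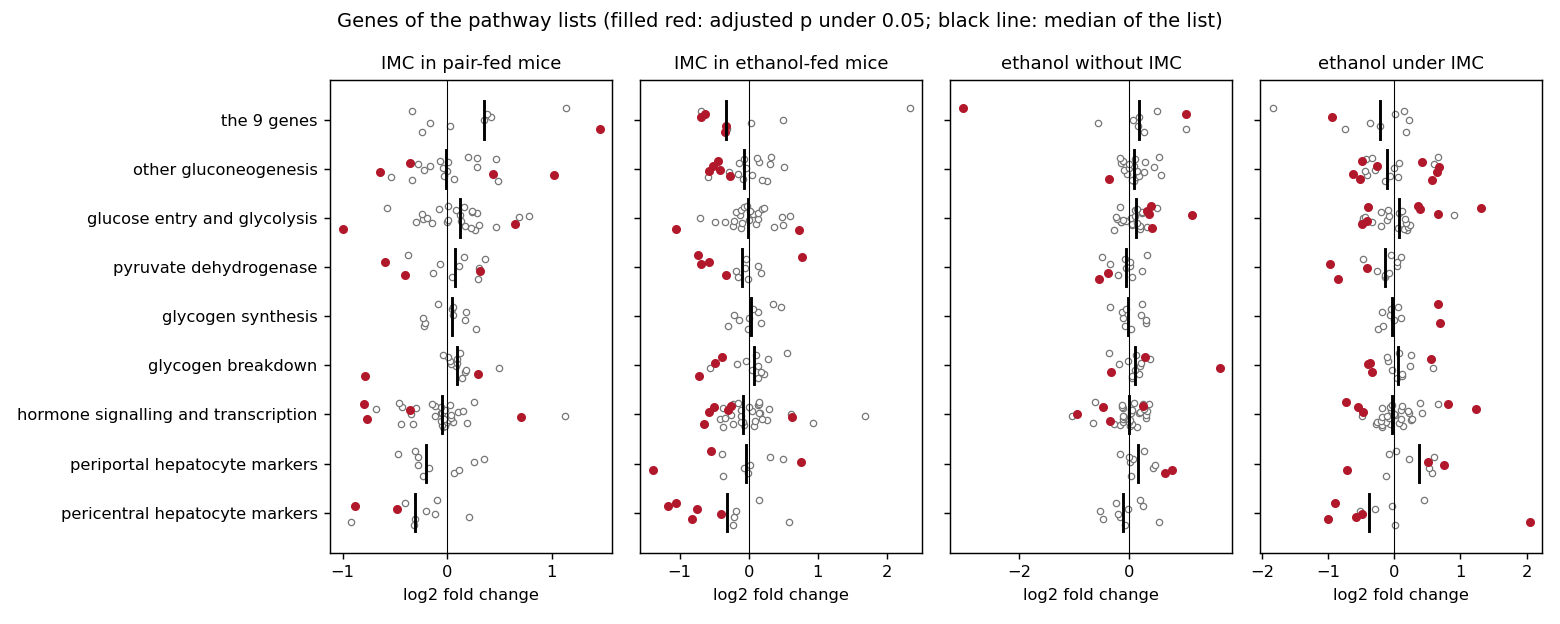
Log2 fold change (x axis) of each tested gene of the 9 and of 8 further lists (y axis) in 4 comparisons, filled red where the adjusted p was under 0.05, with the median of each list as a black line. Pericentral markers with an adjusted p under 0.05 lay below 0 with IMC in both diets.

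Other genes of the same pathways were followed by list. Of 20 further genes of gluconeogenesis and its shuttles, 5 fell with IMC in ethanol-fed mice. Among them were Pcx, pyruvate carboxylase, from 7221 ± 153 to 5073 ± 533 (-0.52 on the log2 scale, adjusted p = 0.000600), and Slc25a13, the aspartate and glutamate carrier citrin, from 3000.5 ± 56.7 to 2200.3 ± 165 (-0.45, adjusted p = 0.000596). Gpt2, alanine aminotransferase of mitochondria, fell by 0.58 (adjusted p = 0.0215), which was lost without library 3, 7 or 15 and after quantile normalization (adjusted p = 0.0745). The median of this list was -0.07. In pair-fed mice 2 rose and 2 fell, and these included Gpd1, glycerol-3-phosphate dehydrogenase, from 3539 ± 875 to 7204 ± 1675 (1.03, adjusted p = 0.00296), and Gpt, alanine aminotransferase of the cytosol, from 3191 ± 269 to 2061 ± 394 (-0.65, adjusted p = 0.00259). Under ethanol without IMC 1 of 20 passed, the fall of Gk, glycerol kinase (-0.37, adjusted p = 0.0248), which was lost without library 10, 14, 3 or 7 and on the deposited scale (adjusted p = 0.210). Under IMC ethanol raised 4 and lowered 4, among them Gpt up (0.64, adjusted p = 0.00141) and Gpd2, the mitochondrial glycerol-3-phosphate dehydrogenase, down (-0.62, adjusted p = 0.000994).

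Of 26 genes of glucose entry and glycolysis, 1 rose and 1 fell with IMC in each diet. Of all genes tested, 21.5% were called in ethanol-fed and 9.49% in pair-fed mice. The list genes called in ethanol-fed mice were the aldolases Aldoa, from 679.6 ± 92.1 to 1128 ± 149 (0.73, adjusted p = 0.000383), and Aldoc, from 126 ± 15 to 62.6 ± 19.8 (-1.05, adjusted p = 0.00551). In pair-fed mice they were Gpi1, glucose-6-phosphate isomerase (0.65, adjusted p = 0.0121), and again Aldoc (-1.0, adjusted p = 0.0166), which was lost without library 4 or 6. Ethanol without IMC raised 5, among them Tpi1, triosephosphate isomerase, from 3896 ± 166 to 5126 ± 211 (0.40, adjusted p = 0.00737). Ethanol under IMC raised 4 and lowered 3, with Slc2a1, the glucose transporter GLUT1, rising from 69.9 ± 8.87 to 175 ± 28.9 (1.31, adjusted p = 0.000311) and Pfkl, liver phosphofructokinase, from 357 ± 22.6 to 567 ± 66.7 (0.66, adjusted p = 0.000383). These rises stood in the same comparison as the fall of Pklr.

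Of 12 genes of pyruvate import and pyruvate dehydrogenase, 4 fell and 1 rose with IMC in ethanol-fed mice, where 21.5% of all genes were called. Those of this list included Pdk1, a kinase that switches the complex off, from 1675 ± 118 to 1052 ± 232 (-0.69, adjusted p = 0.00187), and Pdp2, a phosphatase that switches it on, from 740.3 ± 64.4 to 448 ± 84.0 (-0.74, adjusted p = 0.000621). Ethanol under IMC lowered 3, with Pdk1 (-0.97, adjusted p = 0.000221) and the subunit gene Dlat (-0.86, adjusted p = 0.000452) among them. In pair-fed mice IMC lowered 2 and raised 1, and Mpc1, the pyruvate carrier, fell by 0.40 (adjusted p = 0.00568). Ethanol without IMC lowered 2.

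Of 10 further genes of glycogen synthesis, none passed by limma for IMC in either diet or for ethanol without IMC, with 3, 3 and 2 genes at an unadjusted p under 0.05 in pair-fed mice, ethanol-fed mice and Vehicle mice. By edgeR none passed in these comparisons, and by DESeq2 1 fell with IMC in ethanol-fed mice. Under IMC, ethanol raised 2, of which Ugp2, the UDP-glucose maker, went from 7382 ± 784 to 11656 ± 903 (0.66, adjusted p = 0.00327). The targeting subunits Ppp1r3a, Ppp1r3d and Ppp1r3f missed the filter, with at most 9.26, 5.54 and 9.40 normalized counts. Of 14 genes of glycogen breakdown, 3 fell with IMC in ethanol-fed mice, where 21.5% of all genes were called. Those of this list included Pygl, liver glycogen phosphorylase, from 7763 ± 369.6 to 5949.9 ± 607 (-0.39, adjusted p = 0.00595; 0.0822 after quantile normalization), and Phkb, a subunit of the kinase that activates it (-0.48, adjusted p = 0.00689). In pair-fed mice IMC raised 1 and lowered 1. Ethanol without IMC raised 2 and lowered 1, with Nhlrc1, the ubiquitin ligase malin, going from 9.01 ± 5.67 to 26.9 ± 4.41 (1.64, adjusted p = 0.0145), and under IMC it raised 1 and lowered 3.

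Of 34 genes of hormone signalling and transcription, 1 rose and 5 fell with IMC in ethanol-fed mice, where 21.5% of all genes were called. Mlxipl, which encodes the ChREBP factor that acts on Pklr, fell from 4757 ± 734 to 3196 ± 390.1 (-0.57, adjusted p = 0.00475), and Hnf4a, a liver identity factor, rose from 7982 ± 1055 to 12232 ± 837 (0.62, adjusted p = 0.00298). In pair-fed mice 1 rose and 3 fell, and Hnf4a again rose, from 8587 ± 1226 to 14093 ± 2317 (0.71, adjusted p = 0.00322), while Srebf1, a driver of lipid synthesis, fell from 2665 ± 47.9 to 1549 ± 217 (-0.79, adjusted p = 0.000821) and Foxo3, a factor restrained by insulin, fell by 0.77 (adjusted p = 0.00682). Ethanol without IMC raised 1 and lowered 3, with Crtc2, a coactivator in glucagon signalling, lower (-0.35, adjusted p = 0.0132; 0.173 as deposited). Under IMC ethanol raised 2 and lowered 3, and Srebf1 rose (0.82, adjusted p = 0.000302).

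Hepatocytes near the portal vein make more glucose and those near the central vein use more, so zonal markers were set beside the 9 genes. With IMC, 21.5% of all genes were called in ethanol-fed mice and 9.49% in pair-fed mice. Of 10 pericentral markers, 5 fell with IMC in ethanol-fed mice, including Oat (-1.17, adjusted p = 0.00257), Rgn (-1.05, adjusted p = 0.00141) and Cyp2e1 (-0.82, adjusted p = 0.00891), and 2 fell in pair-fed mice. Of 10 periportal markers, which include Pck1, 2 fell and 1 rose with IMC in ethanol-fed mice, and none passed in pair-fed mice by limma, edgeR or DESeq2, with 2 at an unadjusted p under 0.05. The periportal enzyme Cyp2f2 went from 9224 ± 1447 to 3537 ± 617 in ethanol-fed mice (-1.38, adjusted p = 2.52e-06), and Hsd17b13 rose (0.76, adjusted p = 8.44e-05). The summed hepatocyte markers ranged from 1129840 to 1241510 in EtOH Vehicle and from 1022770 to 1328600 in EtOH IMC. They ranged from 1206450 to 1840390 in Pair Vehicle and from 1704570 to 1832780 in Pair IMC, so Pair IMC lay above EtOH IMC and EtOH Vehicle without overlap. The sum rested largely on Alb, at 714939 to 1502860 normalized counts, against at most 135035 for any other hepatocyte marker. With ethanol under IMC the median log2 difference of the 7 hepatocyte markers was -0.44, and none passed. The part of this shift in the fall of Pklr was not tested. The summed stellate cell markers ranged from 3915 to 4592 in EtOH Vehicle and from 2546 to 3438 in EtOH IMC, a lower range that moved with Fbp1, Gckr, Pklr and Ppp1r3b, and its part in their falls was not tested. The sum rested largely on Dcn, at 1683 to 2754 normalized counts. Of the 5 stellate markers 1 passed as lower there. Their median log2 difference with IMC was -0.49 in ethanol-fed and -0.49 in pair-fed mice. The sums of the pair-fed groups overlapped, at 2690 to 3686 in Pair Vehicle and 2730 to 3392 in Pair IMC. Without library 11, IMC in ethanol-fed mice raised 1 and lowered 6 of the gluconeogenesis list, raised 2 and lowered 2 of the glycolysis list, lowered 5 of the pyruvate dehydrogenase list, raised 1 and lowered 3 of the glycogen breakdown list, raised 1 and lowered 5 of the hormone and transcription list and raised 1 and lowered 5 of the pericentral markers. Ethanol under IMC, without library 11, lowered 2 of the 9 genes (Pklr and Ppp1r3g), raised 4 and lowered 6 of the gluconeogenesis list, raised 5 and lowered 3 of the glycolysis list and lowered 4 of the pyruvate dehydrogenase list. It raised 2 and lowered 1 of the glycogen synthesis list, raised 1 and lowered 2 of the glycogen breakdown list and raised 3 and lowered 3 of the hormone and transcription list.

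**Figure D4:**
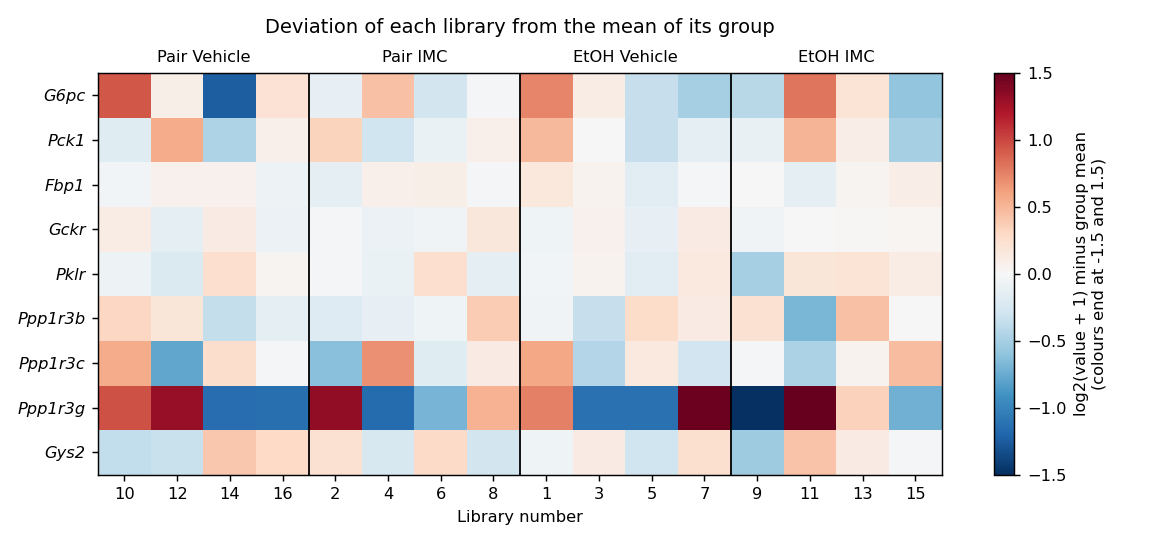
Deviation of each library (x axis, grouped) from the mean of its group in log2(value + 1), for the 9 genes (y axis), in colour from -1.5 to 1.5. Libraries 1, 10 and 11 were above their group for G6pc, and the colours are strongest for Ppp1r3g and G6pc and palest for Fbp1 and Gckr.

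The extremes within a group are given as a description, since each gene has a highest and a lowest library. Library 11, which held muscle transcripts, was the highest of EtOH IMC for G6pc, Pck1, Ppp1r3g and Gys2 and the lowest for Fbp1, Ppp1r3b and Ppp1r3c. Library 1 was the highest of EtOH Vehicle for G6pc, Pck1, Fbp1 and Ppp1r3c, and library 5 was the highest for Ppp1r3b and the lowest for Pck1, Fbp1, Gckr, Pklr and Gys2. In Pair Vehicle, library 14 was the lowest for G6pc, Pck1, Ppp1r3b and Ppp1r3g and the highest for Fbp1, Gckr, Pklr and Gys2.

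For each member called in at least 1 comparison, the genes with the most similar pattern were those with the smallest root mean square difference in centred log2(value + 1) over the 16 libraries. For G6pc these were Slc25a25, Igf2bp2 and Smarcd1, from 0.515 upward against a spread of 0.767 of G6pc itself, so none was close. For Fbp1 they were Sec16b (0.10), Gm10705 and Serpinf1, and for Gckr they were Ndufs1 (0.0808), Ppp6r2 and Pttg1ip. Pklr was most like Iqsec2 (0.221), 2310022B05Rik and Rpia, the last an enzyme of the pentose phosphate pathway. Ppp1r3b was most like Itih5 (0.244), Phactr2 and Tshz2. Ppp1r3g was nearest to Slc39a5 (1.16), Chac1 and Lpin1, and Gys2 to Fgfrl1 (0.163), Nr1d2 and Klhl21, of which Nr1d2 is a repressor of the circadian clock. These differences stand against spreads of the members themselves of 0.208 (Fbp1), 0.151 (Gckr), 0.397 (Pklr), 0.474 (Ppp1r3b), 2.05 (Ppp1r3g) and 0.382 (Gys2).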

How the data were processed

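RNA from 16 mouse livers was sequenced. Per the labels and the study's methods, reads were trimmed with Trim Galore, aligned with STAR to mm10 and normalized with edgeR by upper quantile. The library kit keeps the strand, but the counting tool and its strand setting are not given in the sources used here. The table holds a signal, which the authors deposited as counts scaled by 1 factor per library. Within 0.01 of a read, 100% of values were whole multiples of the value of 1 read, so whole reads were recovered. The 27212 entries covered 24082 gene IDs, and 430 IDs with several symbols had identical values and were used once. In 24 pairs of replicates the chi-square per gene was between 5.60 and 44.0, so none was a duplicate. The labels do not say how animals were housed or handled, so p-values measure the spread between these samples.

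All 16 libraries were rescaled by median ratios over 13121 genes (factors 0.940 to 1.08). Genes that reached 10 in 4 or more libraries (12522) entered a limma 3.58.1 fit (R 4.3.3) of log2(value + 1) by group, with a trended prior. Tests were two-sided and adjusted by Benjamini-Hochberg. A fold change on this scale understates the change of low genes. The procedure was tested on simulated data. Alternatives were pseudocounts of 0.1 and 5, no filter, the values as deposited, quantile normalization, the libraries of a comparison alone, leaving out each library in turn, and tests of the whole reads by edgeR 4.0.16 (TMM or upper quartile) and by DESeq2 1.42.0. Both count tests without library 15, where 1 read is worth close to 1, were added after seeing the data, as was the search for the carbohydrate response element.

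The 9 genes and the lists were chosen with earlier results of these data known. Named are all 9 genes, up to 3 genes per list and comparison of 2 groups with the largest change at an adjusted p under 0.05, of which most are printed, and the 3 genes most like each called member. Hcn3 was named after its overlap was seen. GENCODE vM21 (GRCm38) gave gene positions. Promoters are from RefSeq, where 7 of the 9 genes matched and Ppp1r3b and Gys2 did not. Reads carry no molecular identifiers, so floors cover counting error alone. Plots were made with Python 3.11.15 and matplotlib 3.10.9.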

Additional observations from a re-analysis of the deposited data

Results flagged for a closer look

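Among EtOH IMC mice, library 9 had 1442 normalized counts of Pklr while the other 3 lay between 2205 and 2348, a gap of 0.842 of the range of the group. For Ppp1r3g in the same group, library 11 had 82.5 and the other 3 lay between 0.855 and 12.9, a gap of 0.853 of the range. Both are above the 95% limit of Dixon's ratio for 4 samples, and 36 groups were examined, of which chance flags about 1 in 20. Without library 9, Pklr fell by 0.53 on the log2 scale with IMC in ethanol-fed mice (adjusted p = 0.00499, limma), and the value for Ppp1r3g without library 11 is given above. The third is Pklr, for which the effect of IMC differed between diets by -1.11 on the log2 scale (adjusted p = 0.0133, limma).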

How the results depend on the processing

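Of the 9 genes, the falls of Pklr with IMC in ethanol-fed mice and with ethanol under IMC, its difference between diets, the rises of Ppp1r3b with ethanol in Vehicle mice and averaged over treatments, and the fall of Fbp1 with IMC averaged over diets held in every alternative run. The number of members called moved with the method. For IMC in pair-fed mice it was 1, and 2 after quantile normalization and 3 by DESeq2, with or without library 15. For IMC in ethanol-fed mice it was 4, and 1 after quantile normalization, while by edgeR with TMM and by DESeq2 4 members fell and 1 rose. For the difference between diets it was 1, and 2 by DESeq2. For IMC averaged over diets it was 1, and 2 after quantile normalization or by edgeR with TMM, 3 by edgeR with upper quartiles, 4 by DESeq2 or by edgeR without library 15, and 5 by DESeq2 without library 15. For ethanol without IMC it was 2, and 5 as deposited, 4 by DESeq2 with or without library 15, and 1 with a pseudocount of 5, without the filter, after quantile normalization and by edgeR with TMM with or without library 15. For ethanol under IMC it was 1, and 2 as deposited. With each library left out, these counts ranged from 0 to 2 for IMC in pair-fed mice (0 without library 4), 2 to 5 in ethanol-fed mice (2 without library 1), 1 to 1 for the difference, 1 to 5 for IMC averaged over diets (5 without library 12), 1 to 2 for ethanol without IMC, 1 to 2 under IMC (2 without library 11) and 4 to 5 averaged over treatments. Why they moved was not tested.

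Signs turned only for differences close to 0 that had not passed. On leaving out a library, Gckr with IMC in pair-fed mice ranged from -0.029 to 0.068 (-0.0017 by edgeR with upper quartiles), Gys2 with IMC in ethanol-fed mice from -0.10 to 0.22 and averaged over diets from -0.13 to 0.025, the Pck1 difference between diets from -0.035 to 0.32, Pck1 with ethanol without IMC from -0.086 to 0.26, G6pc with ethanol averaged over treatments from -0.067 to 0.29, and, with ethanol under IMC, Ppp1r3b from -0.14 to 0.24 and Ppp1r3c from -0.064 to 0.37 (-0.063 by edgeR and -0.068 by DESeq2 without library 15). Gckr with ethanol averaged over treatments was -0.03, and 0.16 (adjusted p = 0.0407) as deposited, where ethanol contrasts of all genes shift upward.

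Over all genes, IMC in pair-fed mice gave 1188 calls, 691 with its own libraries alone and 537 without library 4. The difference between diets gave 139, 80 without the filter, 114 by edgeR, 339 by DESeq2, 72 and 255 by these without library 15, and 54 to 164 with a library left out. Ethanol gave 1491 without IMC, 2064 under IMC and 3273 averaged, and 3000, 3624 and 5222 as deposited, 807 without IMC when library 5 was left out, and 1344 under IMC by edgeR without library 15. By edgeR with TMM the other comparisons gave 1159, 2795, 3560, 1551, 2042 and 3212 calls, for IMC in pair-fed mice, in ethanol-fed mice and averaged, and ethanol without IMC, under IMC and averaged. No paired analysis was possible because the sample labels name neither the feeding pairs nor the cages. Groups of 4 mice and, for Ppp1r3g, counts near 0 limit what could be detected.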

Other observations

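Some zonal markers moved with ethanol, where 16.5% of all genes tested were called under IMC and 11.9% in Vehicle mice. Under IMC, 1 of 10 pericentral markers rose and 4 fell (1 and 5 without library 11), and 2 of 10 periportal markers rose and 1 fell (3 and 1 without library 11). In this comparison ethanol raised the pericentral Cyp1a2, an enzyme of drug oxidation, from 1868 to 8274 normalized counts on average (2.05 on the log2 scale, adjusted p = 0.00083, limma) and lowered the pericentral Cyp2e1, which oxidizes ethanol, from 55690 to 29260 (-1.0, adjusted p = 0.00339). The periportal histidine lyase Hal rose from 5048 to 8533 (0.76, adjusted p = 0.00421), while the periportal Cyp2f2 fell from 5766 to 3537 (-0.71, adjusted p = 0.0011). In Vehicle mice no pericentral marker passed by limma or edgeR, 1 was lower by DESeq2, and 2 were lower at an unadjusted p under 0.05. There 2 periportal markers rose, with Cyp2f2 going from 5323 to 9224 (0.78, adjusted p = 0.00112).

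Markers of adipocytes, pancreas acinar cells and skeletal muscle were low outside library 11, while sums were higher for Kupffer cells, at 1980 to 5714 normalized counts, and endothelial cells, at 2226 to 3175 over all libraries. Sums were also low for T and B cells (5.93 to 56.6) and neutrophils (11.95 to 38.7). Summed over 5 genes each, adipocyte markers lay between 34.4 and 73.9 normalized counts in Pair Vehicle and between 16 and 36.2 in EtOH Vehicle, and pancreas acinar markers between 5.81 and 16.3 in Pair IMC and at most 4.05 in the other groups. The acinar sum rested almost wholly on Cela2a, since Pnlip, Cpa1 and Amy2a5 were at 0 in all 16 libraries and Prss2 in 15. The adipocyte sum rested largely on Cidec, while Adipoq, Plin1, Retn and Lep were at 0 in 7, 6, 7 and 11 libraries. Whether the content of these cell types differed was not tested. The skeletal muscle sum was 1089 in library 11 and at most 18.1 in the other 3 groups.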
